A study of Homo sapiens with 4 samples.

Results

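Tight junctions seal the space between neighbouring epithelial cells and set which ions and molecules pass between them. Their strands are built from claudins, a family of proteins that span the membrane, together with the MARVEL proteins occludin, tricellulin and MARVELD3. Scaffold proteins such as ZO-1 and cingulin tie the strands to actin, immunoglobulin-like adhesion molecules of the JAM and CAR type lie beside them, and the PAR and Crumbs complexes of polarity proteins place the junction at the border of the apical membrane. The genes described here are 36 members of this machinery, listed by symbol for their family or role in the junction (GENCODE version 29), out of 58825 genes counted. They comprise 19 claudins, 3 MARVEL genes, 4 scaffold genes, 5 genes of adhesion molecules including LSR, and 5 polarity genes.

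The expression of these genes was compared between LoVo cells, a human colorectal adenocarcinoma line, with wild-type MET (MET+, with GFPCTR in their descriptions) and LoVo cells of genotype MET knock out (MET-KO), with 2 biological replicates each, all kept in DMEM with 10% fetal bovine serum and antibiotics. The paper describes the MET receptor of LoVo cells as uncleaved and phosphorylated without its ligand, from a gene neither mutated nor amplified. MET-KO cells were made with Cas9 and a guide against MET, followed by puromycin and the picking of single clones, and whether both MET-KO libraries come from 1 clone is not stated, so that a difference between clones and an effect of MET cannot be told apart. The libraries were made by the QuantSeq 3' method, which primes at the poly(A) tail and reads transcripts close to their 3' ends, so counts do not scale with transcript length and levels in CPM (counts scaled to the size of each library) can be compared between genes, apart from differences in how well each 3' end is captured. Totals ranged from 8429142 to 10286552 counts per library, and 0 counts of a gene set an upper limit of 3 counts, equal to 0.276 to 0.363 CPM depending on the library (counting error only).

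MET itself had 2794 and 3272 counts in MET+ and 861 and 965 in MET-KO libraries, 3.89-fold lower in MET-KO cells (log2 fold change -1.96, standard error 0.10, adjusted p = 1.49e-18 by the quasi-likelihood test of edgeR after Benjamini-Hochberg adjustment). The Pearson correlation of log2 CPM across genes was 0.985 and 0.990 between replicates and 0.827 to 0.831 between groups. Of 13801 genes tested, 54.1% were called at an adjusted p of 0.05, 27.2% higher and 26.9% lower in MET-KO cells. The summed level of 8 epithelial markers was 9660 to 9690 CPM for MET+ and 7290 to 8250 CPM for MET-KO libraries. Most of it was KRT18, KRT19 and KRT8, at means of 6020, 1644 and 1345 CPM in MET+ libraries. In MET-KO libraries these were at 4879, 1350 and 1183 CPM. Of the 8 markers 6 were called lower and 1, ELF3, higher in MET-KO cells. ESRP1 was 5.65-fold lower, with 140 and 226 counts in MET+ and 32 and 43 in MET-KO libraries. GRHL2, another of the 8 and a transcription factor of epithelial cells, had 145 and 154 counts in MET+ and 0 in both MET-KO libraries. Of 6 colorectal markers 5 were tested, and 4 were called lower and 1, CDX2, higher. CDH17 had 212 and 229 counts in MET+ libraries and GPA33 35 and 39, and both were at 0 in MET-KO libraries. LGALS4 went from 89 and 107 counts to 1 in each MET-KO library and VIL1 from 43 and 58 to 3 in each, and CDX1 was at 0 throughout. GRHL2 and the 4 colorectal markers called lower passed the filter on low counts through MET+ libraries alone, so that they could pass only by differing. Of the endothelial markers, CDH5, KDR and TEK had 0 counts in all 4 libraries, while PECAM1 had at most 7 and VWF at most 4. Of the leukocyte markers, PTPRC and CD3E had 0, CD79A at most 4 and CD68 6 to 16 counts. Of 5 endothelial markers summed, MET+ libraries had 0.846 to 0.924 CPM and MET-KO libraries 0 to 0.0981 CPM. Of 4 leukocyte markers these ranges were 1.33 to 1.95 and 0.686 to 1.11 CPM, and of 7 fibroblast markers 1.64 to 2.18 and 3.63 to 4.33 CPM. Among the fibroblast markers, COL3A1 had 4 and 5 counts in MET+ and 24 and 26 in MET-KO libraries. It was called higher (log2 fold change 2.22, adjusted p = 0.00109, edgeR), having passed the filter on low counts through MET-KO libraries alone. COL1A1 had 10 to 19 counts and was not called, and the other 5 had at most 3 counts in any library. In addition, 12 Y-chromosome genes had at least 10 counts in both MET-KO libraries and 0 in both MET+ libraries.

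Of the 9 claudins with enough counts to be tested 8 were called, where 54.1% of all tested genes were. CLDN2 and CLDN11 among them could pass the filter on low counts only by differing. CLDN11, a sealing claudin known from myelin and from the testis, was at 0 counts in both MET+ libraries and was the most abundant claudin of both MET-KO libraries, whereas CLDN2, which forms channels for small cations and water in leaky epithelia such as the crypt, was counted in MET+ libraries and at 0 in both MET-KO libraries. CLDN7 and CLDN4, which made up most of the claudin transcripts of MET+ cells, were both lower in MET-KO cells. The low-level claudins CLDN15, CLDN1 and CLDN23 were higher and CLDN3 was lower. Since RNA was taken from whole cultures, fewer cells that express a gene and less RNA per cell cannot be told apart.

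The promoters of the pair that was found in only 1 group each are shown because they differ in base composition. They run from 250 bases before to 50 bases after the RefSeq start (GRCh38.p14), with every CG dinucleotide in capitals.
CLDN2, chrX:106899914-106900213, plus strand: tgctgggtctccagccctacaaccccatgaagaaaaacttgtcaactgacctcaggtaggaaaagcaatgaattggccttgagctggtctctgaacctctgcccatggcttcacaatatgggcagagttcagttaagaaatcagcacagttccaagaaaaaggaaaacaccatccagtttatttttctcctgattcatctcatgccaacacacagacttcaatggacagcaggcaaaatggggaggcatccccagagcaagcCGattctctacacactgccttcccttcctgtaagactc
CLDN11, chr3:170418618-170418917, plus strand: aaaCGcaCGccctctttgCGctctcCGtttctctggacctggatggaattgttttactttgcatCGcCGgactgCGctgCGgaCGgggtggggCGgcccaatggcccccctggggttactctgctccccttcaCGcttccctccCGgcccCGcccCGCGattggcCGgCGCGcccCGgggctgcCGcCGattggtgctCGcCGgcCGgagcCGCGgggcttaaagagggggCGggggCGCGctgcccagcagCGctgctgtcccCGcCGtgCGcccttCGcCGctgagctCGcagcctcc
The CLDN2 window holds 1 CG dinucleotide, above 4.0% of the 35116 promoter windows of RefSeq genes, and the CLDN11 window holds 36, above 87.3% of them, where the median is 14. Their starts lie 0 and 3 bases from a transcript start in GENCODE. Of the 36 members, 24 have a window in this set. The AP-1 motif TGANTCA, searched on both strands, was found in 4 of the 24 (CLDN2, CLDN4, CLDN15 and CLDN16) and in 7.7% of all windows. The CLDN16 window lies 32180 bases from the nearest start of that gene in GENCODE, and the CLDN4 and CLDN15 windows 133 and 33 bases. The TEAD motif GGAATG, also on both strands, was in 3 of them (CLDN14, CLDN15 and PRKCI) and in 14.0% of all windows, and the E-box CACCTG in 6 of them and 20.6% of all windows. These are matches of letters, and no binding was measured.

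CLDN11 (ENSG00000013297, chromosome 3, 170418865 to 170454733, GRCh38) was not counted in either MET+ library and had 2459 and 2850 counts in the MET-KO libraries, or 241 and 262 CPM. With 3 counts per library as the most that 0 counts allow, CLDN11 was higher in MET-KO cells by at least 751-fold (adjusted p = 7.81e-28, edgeR). In MET-KO cells it ranked 469 among the 13801 tested genes by CPM. Of the 203 tested genes that were at 0 in both MET+ libraries, CLDN11 had the second highest level in MET-KO cells, and the highest among the 191 that are not on the Y chromosome. Readthrough transcripts annotated over it, AC026316.5 and AC026316.4, had at most 6 counts in any library.

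CLDN2 (ENSG00000165376, chromosome X, 106900164 to 106930861) had 157 and 139 counts in MET+ libraries, or 19.0 and 14.3 CPM, and 0 in both MET-KO libraries. It was at least 58.3-fold lower in MET-KO cells (adjusted p = 3.56e-15, edgeR). Among the 116 tested genes at 0 in both MET-KO libraries it ranked 19 by its MET+ level. MORC4 on the opposite strand, which covers its 3' end, had 304 and 383 counts in MET+ and 368 and 358 in MET-KO libraries and was not called. Both claudins passed the filter on low counts through 1 group alone, so that they could pass only by differing.

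CLDN7 (ENSG00000181885, chromosome 17, 7259903 to 7263983), a claudin of both junctional and lateral membranes, had 2483 and 3388 counts in MET+ and 1399 and 1410 in MET-KO libraries. It fell from 324 ± 33.7 CPM (SD, n = 2) to 133.5 ± 5.18 CPM (SD, n = 2), 2.43-fold lower (log2 fold change -1.28, standard error 0.10, adjusted p = 2.02e-13 from the edgeR test). ELP5 on the opposite strand covers its 3' end and was not called (log2 fold change -0.27).
CLDN4 (ENSG00000189143, chromosome 7, 73799542 to 73832693), a barrier claudin of most simple epithelia, had 2265 and 2859 counts in MET+ and 2072 and 2061 in MET-KO libraries, that is 284 ± 14.0 and 196.5 ± 9.46 CPM (SD, n = 2 each). The groups did not overlap in CPM, and CLDN4 fell by 0.53 on the log2 scale (standard error 0.09, adjusted p = 8.84e-06, edgeR).
CLDN3 (ENSG00000165215), its neighbour on chromosome 7 (73768997 to 73770270) and also a barrier claudin, had 90 and 98 counts in MET+ and 33 and 48 in MET-KO libraries. It was 2.72-fold lower (log2 fold change -1.44, standard error 0.26, adjusted p = 1.99e-05, edgeR). The fall of both neighbours went against their chromosome, whose 673 tested genes had a median log2 fold change of 0.50. CLDN3 stood at percentile 4.8 and CLDN4 at percentile 10.4 of them.

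Among the claudins that rose, CLDN15 (ENSG00000106404, chromosome 7, 101232092 to 101238820), a cation channel claudin of the intestine, had 34 and 70 counts in MET+ and 224 and 254 in MET-KO libraries. It was 3.95-fold higher in MET-KO cells (log2 fold change 1.98, standard error 0.21, adjusted p = 9.65e-10, edgeR), above the median of chromosome 7 by 1.48. Of the 100 other tested genes within 5 Mb of CLDN15, 63 were called higher and 9 lower, where 27.2% of all tested genes were called higher. CLDN1, a barrier claudin of skin and many other epithelia, had 29 and 54 counts in MET+ and 97 and 107 in MET-KO libraries, 2.11-fold higher (log2 fold change 1.08, standard error 0.26, adjusted p = 0.000759, edgeR). CLDN23 had 31 and 25 counts against 74 and 58, 2.01-fold higher (log2 fold change 1.005, standard error 0.32, adjusted p = 0.00872, edgeR). For CLDN23 the adjusted p was 0.0557 with DESeq2's Wald test, 0.0761 without MET+ replicate 2 and 0.161 without MET-KO replicate 1.
CLDN12, with 19.8 ± 0.394 CPM (SD, n = 2) in MET+ and 21.4 ± 1.82 CPM (SD, n = 2) in MET-KO libraries, was not called (log2 fold change 0.11, 95% interval -0.21 to 0.43). Its annotated 3' end lies within the span of CDK14 on the same strand, and whether the 2 genes share an end was not examined. CDK14 rose from 8 counts in each MET+ library to 97 and 104 counts in MET-KO replicates 1 and 2. How reads in the overlap of CLDN12 and CDK14 were assigned is not given in the sources used here. The other 10 claudins had too few counts to be tested. CLDN5, CLDN8, CLDN10, CLDN19 and CLDN20 were at 0 in all 4 libraries, and CLDN6, CLDN9, CLDN14, CLDN16 and CLDN18 had at most 6 counts in any library.

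The summed level of the 19 claudins nevertheless differed little between groups. The MET+ libraries had 635 and 701 CPM and the MET-KO libraries 646.3 and 645.8 CPM, a ratio of the means of 0.967, and both MET-KO libraries lay between the MET+ libraries. The sign of this difference changed with the scaling and without MET+ replicate 2. Without CLDN2 and CLDN11 the sum was 616 and 687 CPM for MET+ and 405 and 383 CPM for MET-KO libraries, a ratio of 0.605, and the groups did not overlap.
The composition of these counts changed in both replicates. CLDN7 took 47.2% and 49.6% of the claudin counts of the MET+ libraries (Wilson 95% intervals 45.9% to 48.6% and 48.4% to 50.8%) and 21.2% and 20.1% of those of the MET-KO libraries (20.3% to 22.2% and 19.2% to 21.1%). CLDN4 took 43.1% and 41.9% in MET+ and 31.4% and 29.4% in MET-KO libraries. CLDN11 took none in MET+ libraries, with an upper limit of 0.073% in the shallower library, and 37.3% and 40.6% in MET-KO libraries (36.1% to 38.5% and 39.5% to 41.8%). These intervals cover counting error only and leave out spread between replicates, and those of CLDN11 did not overlap between the MET-KO replicates. No removal of PCR copies is named in the sources used here. Copies counted as reads of their own would make the intervals too narrow for counting error as well.
CLDN4 and CLDN7 together thus made up 90.3% and 91.5% of claudin counts in MET+ and 52.7% and 49.5% in MET-KO libraries. Their order also changed, with 0.912 and 0.844 CLDN4 counts per CLDN7 count in MET+ libraries and 1.48 and 1.46 in MET-KO libraries. Of the channel-forming claudins, CLDN2 went from 2.99% and 2.04% to 0, and CLDN15 from 0.647% and 1.03% to 3.40% and 3.62%. The number of claudins with at least 10 counts was 8 in every library. The inverse Simpson index, which gives the number of equally abundant claudins that would be as diverse, was 2.43 and 2.36 in MET+ and 3.50 and 3.39 in MET-KO libraries.

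**Figure D1:**
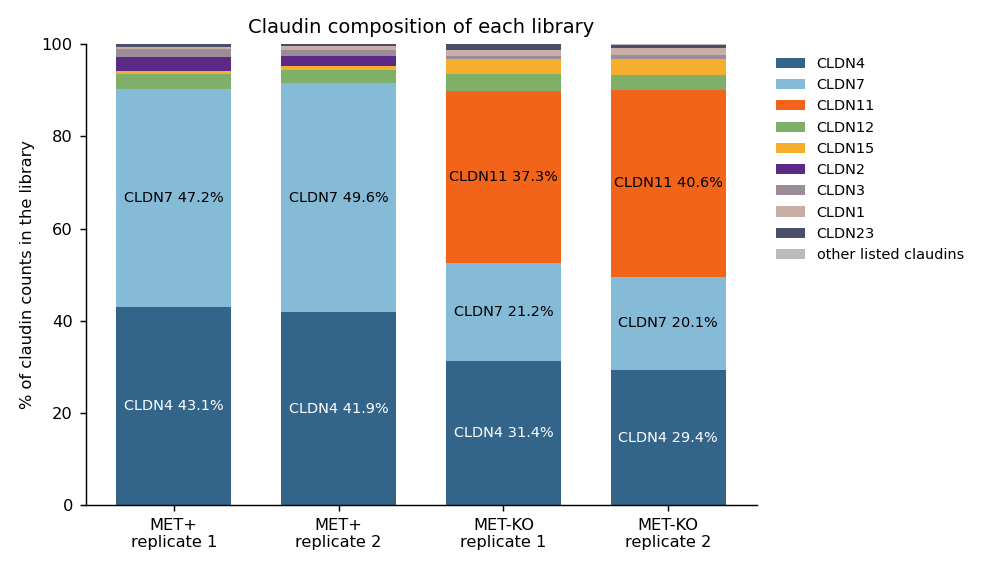
Share of each claudin (% of the counts of the 19 listed claudins, y axis) in the 4 libraries (bars). CLDN7 and CLDN4 fill over 90% of the MET+ bars, while CLDN11, absent from them, takes 37.3% and 40.6% of the MET-KO bars.

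Over the whole list, 23 of the 36 members passed the filter on low counts and 14 of these were called, against 54.1% of all genes tested. Of the 14, 8 were higher in MET-KO cells (background 27.2%) and 6 lower (background 26.9%), and 12 had an absolute log2 fold change of 1 or more, against 24.3% of all genes tested. Apart from CLDN2 and CLDN11, 12 of the 21 other tested members were called (57.1%), a share near the background, and 10 of the 21 had an absolute log2 fold change of 1 or more. By role, 8 of 9 tested claudins were called (4 higher and 4 lower), or 6 of 7 (3 higher and 3 lower) apart from CLDN2 and CLDN11, as were 1 of 2 MARVEL genes, 1 of 4 scaffold genes, 1 of 3 adhesion genes and 3 of 5 polarity genes. The median log2 fold change of the tested members was -0.07, and that of all tested genes 0.01. The list therefore did not move in 1 direction. With 2 libraries a group, the smallest p of an exact two-sided permutation test of a single gene is 0.333, and calls depend on edgeR's estimate of spread, which borrows from all genes. The labels call replicates biological without naming separate cultures, so this spread may be partly technical.

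**Figure D2:**
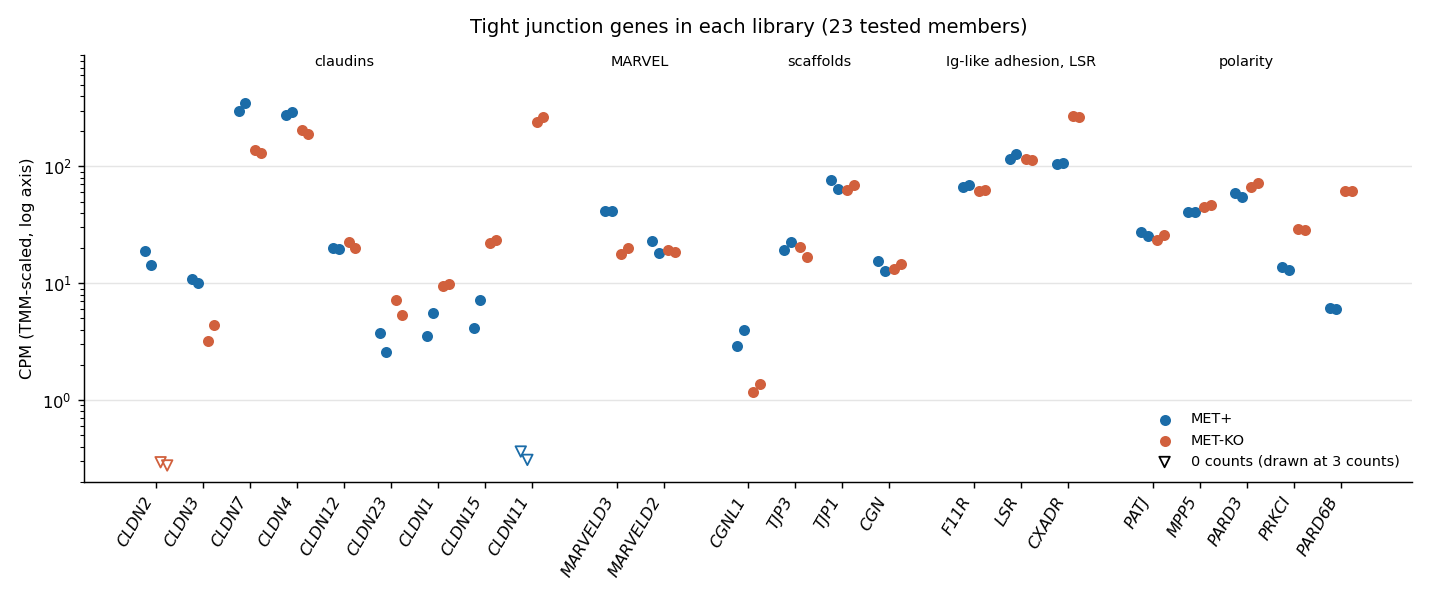
Level of each of the 23 tested members in each library (TMM-scaled CPM, log axis), grouped by role, with 1 point a library and open triangles for 0 counts drawn at the level of 3 counts. CLDN2 and CLDN11 are the members with triangles, and the points of TJP1, TJP3, CGN, PATJ and MARVELD2 overlap between groups.

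The MARVEL proteins are the other transmembrane proteins of the strand. OCLN, which encodes occludin, had only 7 and 13 counts in MET+ and 4 and 9 in MET-KO libraries, too few to be tested, and its pseudogene copy OCLNP1 had 0 in all libraries. MARVELD3 (ENSG00000140832, chromosome 16, 71626161 to 71642114) had 346 and 405 counts in MET+ and 182 and 218 in MET-KO libraries. It fell from 41.7 ± 0.171 to 19.0 ± 1.58 CPM (SD, n = 2 each), 2.20-fold lower (log2 fold change -1.13, standard error 0.14, adjusted p = 1.07e-08, edgeR). PHLPP2 on the opposite strand covers its 3' end and was called higher (log2 fold change 0.49). MARVELD2, which encodes tricellulin, the MARVEL protein of corners where 3 cells meet, was at 22.96 and 18.27 CPM in the MET+ libraries and at 19.22 and 18.33 CPM in the MET-KO libraries. These groups overlapped, and the log2 fold change of -0.13 had a 95% interval of -0.46 to 0.20. LSR, the angulin that recruits tricellulin to those corners, was above the 3 MARVEL genes in both groups. It had 121 ± 8.54 CPM (SD, n = 2) in MET+ and 114 ± 1.175 CPM (SD, n = 2) in MET-KO libraries, and was not called (log2 fold change -0.09, 95% interval -0.29 to 0.11).

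Of the 4 scaffold genes 1 was called, where 54.1% of all tested genes were. TJP1, which encodes ZO-1 and was the highest scaffold gene, had 627 and 624 counts in MET+ and 644 and 755 in MET-KO libraries, or 69.9 ± 8.29 and 66.3 ± 4.51 CPM (SD, n = 2 each). The groups overlapped, with a log2 fold change of -0.07 (standard error 0.11, 95% interval -0.29 to 0.15, adjusted p = 0.602, edgeR). TJP3 (ZO-3) had a log2 fold change of -0.18 (95% interval -0.51 to 0.16) and CGN, which encodes cingulin, of 0.00 (95% interval -0.38 to 0.38), and both overlapped between groups. CGNL1, the cingulin relative of adherens and tight junctions, had 24 and 39 counts in MET+ and 12 and 15 in MET-KO libraries. It was 2.69-fold lower (log2 fold change -1.43, standard error 0.44, adjusted p = 0.00637, edgeR), but its adjusted p was 0.0755 without MET+ replicate 2 and 0.0767 without MET-KO replicate 1. TJP1 and CGNL1 lie on chromosome 15, whose tested genes had a median log2 fold change of -0.43, and the 28 other tested genes within 5 Mb of TJP1 had a median of -0.74.

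Among the adhesion molecules CXADR stood apart. CXADR (ENSG00000154639, chromosome 21, 17512382 to 17593579), the coxsackievirus and adenovirus receptor, a homophilic adhesion molecule of junctions, had 869 and 1047 counts in MET+ and 2726 and 2891 in MET-KO libraries. It rose from 106 ± 1.74 to 267 ± 0.754 CPM (SD, n = 2 each), 2.51-fold (log2 fold change 1.33, standard error 0.09, adjusted p = 3.67e-14, edgeR). Its CPM was above that of every claudin in both MET-KO libraries. Its surroundings rose as well. Of the 11 other tested genes within 5 Mb, 9 were called higher and 0 lower, and the median of their log2 fold changes was 1.62, whereas the median of chromosome 21 was 0.30. The CXADR pseudogenes CXADRP1, CXADRP2 and CXADRP3 had 0 counts. F11R, which encodes JAM-A, had a level of 67.9 ± 2.07 CPM (SD, n = 2) in MET+ and of 62.5 ± 1.26 CPM (SD, n = 2) in MET-KO libraries and was not called (log2 fold change -0.12, 95% interval -0.33 to 0.09). JAM2 had at most 4 counts and JAM3 0 in every library.

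Of the 5 polarity genes 3 were called, where 54.1% of all tested genes were. All 3 were higher in MET-KO cells and encode proteins of the PAR complex. PARD6B (ENSG00000124171, chromosome 20, 50731544 to 50756795), the adaptor that holds atypical protein kinase C and binds active CDC42, had 51 and 59 counts in MET+ and 626 and 671 in MET-KO libraries. It rose from 6.11 ± 0.0757 to 61.6 ± 0.290 CPM (SD, n = 2 each), 10.1-fold (log2 fold change 3.33, standard error 0.15, adjusted p = 3.73e-19, edgeR). PRKCI, the atypical protein kinase C of this complex, had 115 and 127 counts in MET+ and 297 and 310 in MET-KO libraries. It was 2.14-fold higher (log2 fold change 1.10, standard error 0.16, adjusted p = 3.31e-07, edgeR). PRKCZ, another atypical protein kinase C gene but not a listed member, had 320 and 374 counts in MET+ and 363 and 330 in MET-KO libraries. PRKCZ was not called (log2 fold change -0.225, adjusted p = 0.134, edgeR), while PARD3B, also not a listed member, was called higher (0.783, adjusted p = 0.0154, edgeR). PARD3, the scaffold of the complex and the highest polarity gene, had 493 and 531 counts in MET+ and 682 and 786 in MET-KO libraries, 1.22-fold higher (log2 fold change 0.29, standard error 0.11, adjusted p = 0.0231, edgeR). That call was lost with DESeq2's Wald test (adjusted p = 0.0902), without MET+ replicate 2 (0.209) and without MET-KO replicate 2 (0.154). PATJ and MPP5, the listed members of the Crumbs complex, were not called. PATJ had a log2 fold change of -0.10 (95% interval -0.39 to 0.19) and MPP5, which encodes PALS1, of 0.18 (95% interval -0.06 to 0.42). MPP5 lies on chromosome 14, where the median was -0.51, and stood at percentile 83.3 of its chromosome.

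**Figure D3:**
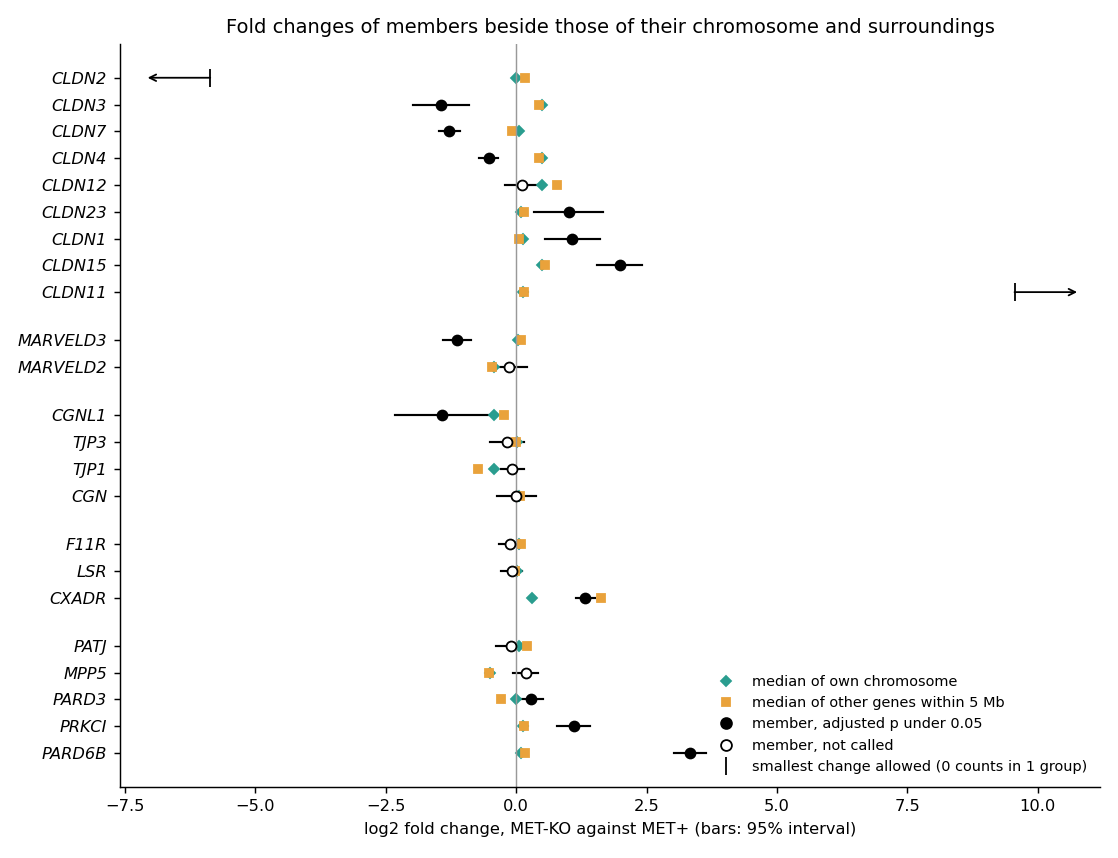
MET-KO over MET+ log2 fold change (x axis) of the 23 tested members (circles, filled where called, with 95% intervals), beside the median of their chromosome (diamonds) and of the other tested genes within 5 Mb (squares). CLDN2 and CLDN11 are drawn as the smallest change that 0 counts allow, and the square of CXADR, at 1.62, lies beyond its own circle at 1.33.

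Since whole chromosomes differed between the groups, each member was set beside its chromosome and its surroundings. For 9 of the 23 tested members the chromosome median was more than 0.25 from 0 on the log2 scale. Subtracting that median changed the sign of no called member. CLDN3, CLDN4, CLDN12 and CLDN15 of chromosome 7 lay -1.94, -1.03, -0.39 and 1.48 from their chromosome's median, and TJP1 and MARVELD2, of the lowered chromosomes 15 and 5, lay 0.35 and 0.30 above theirs. The other tested genes within 5 Mb had median log2 fold changes of 0.44 for both CLDN3 and CLDN4, 0.78 for CLDN12 and 0.56 for CLDN15. CLDN7, MARVELD3, PARD6B, CLDN1 and PRKCI lie on chromosomes with medians between 0.04 and 0.14.
CLDN11 and PRKCI are neighbours on chromosome 3, the middle of PRKCI lying at -172.6 kb from that of CLDN11. Of the 11 other tested genes within 1 Mb of CLDN11, 5 were called higher and 0 lower, and the median log2 fold change was 0.21. Over all tested genes 27.2% were called higher and 26.9% lower. The 5 include PRKCI and ACTRT3, and ACTRT3, at 0 in both MET+ libraries, could pass the filter on low counts only by differing. SKIL, between CLDN11 and PRKCI, was not called (log2 fold change 0.20), while EIF5A2 and TNIK, on the far side of CLDN11, were called higher (1.65 and 1.56). Around CLDN2, 1 of 9 tested genes was called higher and 1 lower, and their log2 fold changes ran from -0.93 to 0.60. Around PARD6B, 5 of 14 were called higher and 2 lower. RIPOR3, at -105.4 kb from PARD6B, was at 0 in both MET+ libraries and had 337 and 496 counts in the MET-KO libraries. RIPOR3 too could pass the filter only by differing. PTPN1 and BCAS4 had log2 fold changes of 1.14 and 1.95. The part of these chromosome-wide and regional differences in the members' values was not tested.

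**Figure D4:**
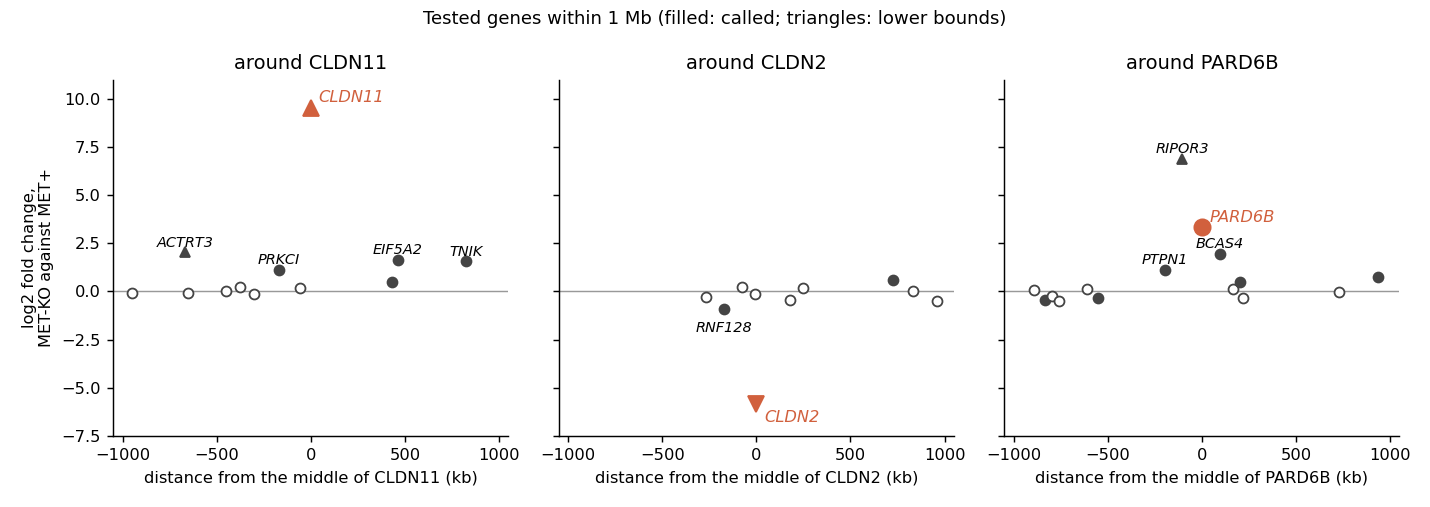
Log2 fold change (y axis) of tested genes within 1 Mb of CLDN11, CLDN2 and PARD6B against the distance from the middle of that gene in kb (x axis), with called genes filled and triangles for genes at 0 counts in 1 group, drawn at the smallest change allowed. ACTRT3, with 13 and 16 counts in MET-KO libraries only, is the other triangle near CLDN11, and RIPOR3 lies above PARD6B.

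Other genes of tight junctions and polarity were read from a separate list of 51 symbols, of which 50 were found and 36 tested. In MET-KO cells 9 of them were higher and 12 lower by the test (58.3% called, against 54.1% of all tested genes), and the list had a median log2 fold change of -0.12. DLG1, a scaffold of the Scribble complex, rose most, from 141 and 163 counts in MET+ to 1001 and 1209 in MET-KO libraries (log2 fold change 2.63, standard error 0.12, adjusted p = 5.34e-19, edgeR). CLDND1, a claudin-like membrane protein, and MAGI1, a junctional scaffold, had log2 fold changes of 2.11 and 1.02. AFDN, which encodes afadin and links nectins to actin, fell by 1.59 on the log2 scale, LLGL2 of the Scribble complex by 1.28 and TBCD, a tubulin cofactor also found at junctions, by 1.14. The surroundings of AFDN were lower as well. Of the 17 other tested genes within 5 Mb of it, 13 were called lower and 1 higher. Their median log2 fold change was -1.03, whereas the median of chromosome 6 was 0.08. Within the Scribble complex the members thus differed in direction, since SCRIB and LLGL1 were called higher (log2 fold changes 0.58 and 0.62) with DLG1, and LLGL2 lower. The Crumbs protein CRB3, which binds PALS1 and PAR6 proteins, was called lower (log2 fold change -1.10), and the second PAR6 gene of this list, PARD6G, higher (0.94), while PARD6A was not called (-0.15, adjusted p = 0.562, edgeR). EPCAM, which is known to bind and stabilise CLDN7, was called lower, with 3638 and 4245 counts in MET+ and 1988 and 2291 in MET-KO libraries (log2 fold change -1.11).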

How the data were processed

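RNA of 4 samples was sequenced as QuantSeq 3' libraries. The authors deposited raw read counts per Ensembl gene, not normalized, with 99 spike-in rows at 0. Their processing notes name cutadapt 1.16, STAR 2.5.4a, featureCounts 1.6.2, DESeq2 1.18.1 and GRCh38, and the annotation and strand setting are not given in the sources used here. Gene names and positions came from GENCODE 29 (58552 of 58825 IDs found) and promoters from RefSeq.

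All genes were fitted in R 4.3.3 with edgeR 4.0.16 (filterByExpr, TMM, condition as the only term, quasi-likelihood test, Benjamini-Hochberg over all tested genes, threshold 0.05). The standard error of a fold change was taken as its absolute log2 value divided by the square root of that test's F statistic. Intervals of 95% for fold changes use this standard error and the t distribution, and shares have Wilson intervals (SciPy 1.17.1). Members and lists were chosen with earlier results of these data known. Members called with a log2 fold change of 1 or more in either direction, or the highest of their role, are given in full, and of the related genes the 3 highest and 3 lowest called whose mean log2 CPM was 3 or more. Genes of the Scribble, Crumbs and PAR6 families, PRKCZ, PARD3B, EPCAM, marker genes and neighbours were named after their values were seen. The alternatives were other scalings, DESeq2 1.42.0, other filters, a replicate block, thinning (seed 1), a fold threshold, leaving out each library, and the chromosome median as zero.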

Additional observations from a re-analysis of the deposited data

How the results depend on the processing

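The counts of members called, 8 higher and 6 lower, ranged from 6 to 8 and from 5 to 6 over all alternatives. They were 6 and 6 with DESeq2's Wald test and 7 and 5 with at least 10 counts in every library, a filter that CLDN2 and CLDN11 could not pass. Counts of related genes ranged from 8 to 12 higher and from 9 to 12 lower. With the replicate block 8 and 6 members were called, and the block changed no member's call. Replicates that share a number deviated together with a correlation of -0.02 over genes and nothing in the labels ties them, so the numbers were taken as names. Calls of CLDN23, CGNL1 and PARD3 were lost in some settings, as given above.
The summed claudin level, -0.05 on the log2 scale, changed sign with the library total as the only scaling (0.054, a scaling that shifted the median over all genes by 0.102 and the share of calls that were higher from 50.3% to 59.2%), without CLDN4 (0.225) and within -0.115 to 0.016 on leaving out each library, the positive value being that without MET+ replicate 2. Members near 0 that were never called also changed sign. With library totals TJP1, PATJ and LSR were at 0.028, 0.003 and 0.013. CGN was at -0.001 with DESeq2, -0.004 without a filter and -0.067 after thinning, and between -0.146 and 0.146 on leaving out each library. On leaving out each library TJP1 ranged from -0.199 to 0.053 and MARVELD2 from -0.299 to 0.041. DESeq2 called 5760 genes in all and edgeR 7467.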
